A study of Homo sapiens with 9 samples.

Results

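The genes that carry glucose through glycolysis, to lactate and through the pentose phosphate pathway were followed in SET2 cells with and without DYRK1A. A list of 32 gene symbols was matched to the symbol column of the deposited table, and 31 were found among its 60662 genes. The remaining symbol, PGLS, is paired by the gene name reference with ENSG00000130313.7, which the table lists under the symbol AC010618.1, so its row is described beside the 31 and is not counted with them. All 31 passed the filter on low counts in every comparison made.

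SET2 is a JAK2 mutant megakaryoblastic line from a post-MPN acute myeloid leukemia (MPN, myeloproliferative neoplasm), and DYRK1A is a protein kinase that the study targeted in this line. The 9 bulk RNA-seq libraries came from untreated cells in 3 groups, wild-type SET2 (WT) and the DYRK1A KO clones 11H1 and 14B5, with n = 3 in each. Cas9 ribonucleoprotein was nucleofected, single cells were sorted, and each clone grew from 1 of them and was chosen for out-of-frame indels. The sources used here do not make clear whether the WT cells also went through a single cell, and if they did not, that passage cannot be told apart from the DYRK1A edit. The libraries of a group were not stated to come from separate cultures, and p values measure only the spread between these libraries.

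Glycolysis splits glucose into pyruvate in the cytosol and yields ATP and NADH. Lactate dehydrogenase turns pyruvate into lactate, which leaves through monocarboxylate transporters, and pyruvate dehydrogenase kinases hold pyruvate back from the mitochondria. The pentose phosphate pathway branches off at glucose 6-phosphate and yields NADPH and ribose. In leukemia cells many of these genes are induced by hypoxia-inducible factor (HIF) and by MYC, and several steps are served by isozymes with separate genes.

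Library totals ran from 32347779 to 60272245 expected counts. Levels are given as CPM, read counts scaled to a common library size with TMM factors, and a count of 0 would have allowed up to 0.0927 CPM in the smallest library, a limit that covers counting error only. DYRK1A RNA lay between 196 and 218 CPM in WT, between 188 and 192 CPM in 11H1 and between 174 and 191 CPM in 14B5, with a log2 fold change of −0.09 (adjusted p = 0.131 in edgeR) in 11H1 and −0.17 (adjusted p = 0.0278) in 14B5, and read counts over the gene do not show the reading frame. Mitochondrially encoded genes took 3.54% to 6.03% of the counts in WT, with library 1 the highest, 7.23% to 7.39% in 11H1 and 3.30% to 3.92% in 14B5. The summed level of 15 megakaryoblastic identity markers was 2878 to 2977 CPM in WT, 2263 to 2361 CPM in 11H1 and 2256 to 2299.5 CPM in 14B5. Between 3 and 5 of these markers were under 1 CPM in every library of a group, PF4, PPBP and VWF among them in every group. Of the 14 identity markers tested, 11 were called lower and 2 higher in each clone versus WT (median log2 fold change −0.96 in 11H1 and −1.35 in 14B5). The summed level of 16 markers of other blood cells was 11567.5 to 13269.6 CPM in WT, 10095.7 to 11020.7 CPM in 11H1 and 12627 to 14259 CPM in 14B5. The globin HBG2 alone was at 11294 to 12984 CPM in WT, 9917 to 10842 CPM in 11H1 and 12436 to 14054 CPM in 14B5. Without the globins HBB, HBG1 and HBG2 the sum was 244 to 250.4 CPM in WT, 134 to 141 CPM in 11H1 and 148 to 165 CPM in 14B5. LYZ was at 195 to 198 CPM in WT, and 8 or 9 of the 16 markers were under 1 CPM in every library of a group. Of those tested, 7 of 9 were called lower and 2 higher in 11H1, and 4 of 10 lower and 1 higher in 14B5. For comparison, 32.8% of all genes tested were called lower and 31.8% higher in 11H1, and 28.7% and 24.9% in 14B5. The part of these mitochondrial and marker shifts in the results was not tested.

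Most members were lower in both clones than in WT. In 11H1 27 of the 31 fell and 2 rose past an adjusted p of 0.05 in edgeR's quasi-likelihood test, whereas of all 16675 genes tested 64.6% were called, 32.8% lower and 31.8% higher. In 14B5 22 members fell and 5 rose, against 28.7% of 16537 genes called lower and 24.9% called higher (53.5% in all). The median log2 fold change (log2FC) of the members was −0.75 in 11H1 and −0.40 in 14B5, while that of all genes tested was −0.0066 and −0.014. Because over 1 gene in 2 was called, the direction and the size of a change say more than the call. The members were chosen with earlier results of these data known, so these counts describe them and do not test them as a set.

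The members together took 1.95% ± 0.0488 (SD, n = 3) of all counts in WT, 1.198% ± 0.0175 in 11H1 and 1.45% ± 0.0208 in 14B5. The 3 ranges did not overlap, from 1.89% to 1.98%, from 1.18% to 1.21% and from 1.43% to 1.47%. After mitochondrially encoded genes were left out of the total, the share was 2.01% to 2.06% in WT, 1.27% to 1.31% in 11H1 and 1.48% to 1.52% in 14B5. In bulk RNA, fewer cells that express a gene and less of its RNA per cell cannot be told apart.

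When a change had to exceed 0.5 on the log2 scale (edgeR's glmTreat), 17 members were lower and 0 higher in 11H1, where 12% of all genes were lower and 9.12% higher. In 14B5 9 members were lower and 0 higher, where 12.8% of all genes were lower and 2.91% higher. The 9 were SLC2A3, HK2, PFKM, PFKFB4, ALDOA, ALDOC, ENO1, PKM and SLC16A3, and each of them was also among the 17 of 11H1. The other 8 in 11H1 were GPI, TPI1, GAPDH, PGK1, PGAM1, LDHA, PDK1 and PDK3. Both comparisons use the same WT libraries.

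**Figure D1:**
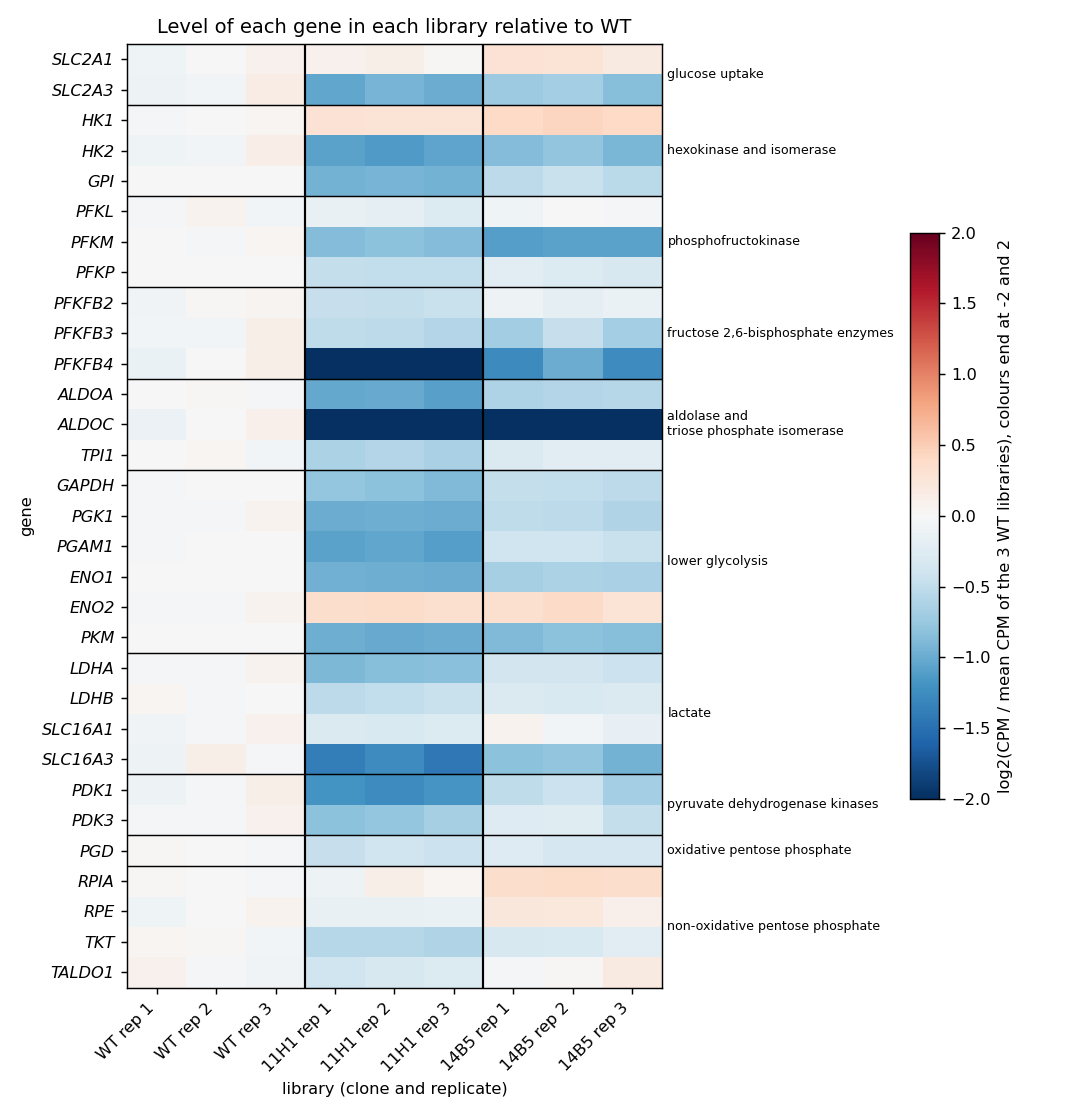
Level of the 31 genes in each of the 9 libraries as the log2 ratio of CPM to the mean of the 3 WT libraries, with genes in rows by step, libraries in columns and colour for the ratio, ending at −2 and 2. Blue fills most rows in both clones and is deepest for ALDOC and PFKFB4, while HK1 and ENO2 are red in all 6 KO libraries.

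Libraries of the compared groups did not overlap in level for 29 members in 11H1 versus WT and for 28 in 14B5 versus WT, where 68.7% and 60.9% of all genes tested did not overlap. The other genes tested within 5000000 bases of a member, a check chosen after the data were seen, had a median log2FC between −0.25 and 0.16 in 11H1 and between −0.15 and 0.11 in 14B5, depending on the member.

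The promoters of 4 members are printed because their genes had the largest fold changes past the threshold in either clone, ALDOC (aldolase C), PFKFB4 (a fructose 2,6-bisphosphate enzyme), SLC16A3 (the lactate exporter MCT4) and PDK1 (a pyruvate dehydrogenase kinase). Each line gives the 250 bases before the RefSeq start on GRCh38.p14, 5′ to 3′ on the strand of the gene. Capitals mark ACGTG or GCGTG on either strand, the cores that HIF is known to bind, and CACGTG, the site of MYC, holds ACGTG on both strands. The stretches lie at chr17:28576896-28577145, chr3:48556804-48557053, chr17:82228185-82228434 and chr2:172555123-172555372.
ALDOC: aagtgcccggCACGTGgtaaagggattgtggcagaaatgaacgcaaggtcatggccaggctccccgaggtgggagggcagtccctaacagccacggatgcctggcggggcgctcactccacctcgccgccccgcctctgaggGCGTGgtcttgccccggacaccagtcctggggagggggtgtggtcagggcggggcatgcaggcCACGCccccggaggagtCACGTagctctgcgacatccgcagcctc
PFKFB4: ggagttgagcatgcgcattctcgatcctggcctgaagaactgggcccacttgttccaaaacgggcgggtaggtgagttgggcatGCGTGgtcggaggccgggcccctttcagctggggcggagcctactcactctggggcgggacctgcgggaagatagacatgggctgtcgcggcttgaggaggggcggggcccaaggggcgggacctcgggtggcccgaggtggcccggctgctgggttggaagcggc
SLC16A3: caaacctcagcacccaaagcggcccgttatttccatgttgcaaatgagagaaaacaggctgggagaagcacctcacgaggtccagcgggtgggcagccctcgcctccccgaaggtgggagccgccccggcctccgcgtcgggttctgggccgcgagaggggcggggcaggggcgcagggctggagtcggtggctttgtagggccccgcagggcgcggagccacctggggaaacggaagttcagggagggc
PDK1: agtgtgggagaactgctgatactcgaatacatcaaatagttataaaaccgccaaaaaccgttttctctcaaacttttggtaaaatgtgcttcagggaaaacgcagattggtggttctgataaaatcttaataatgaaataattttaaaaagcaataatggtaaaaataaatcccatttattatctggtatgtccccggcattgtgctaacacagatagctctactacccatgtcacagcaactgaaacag

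The ALDOC stretch held 5 matches, 2 of them the overlapping pair in CACGTG, and the PFKFB4 stretch held 1. The SLC16A3 and PDK1 stretches held 0, which says only that these letters are not in this window. RefSeq windows were found for 29 of the 32 listed symbols, PGLS included, and not for SLC2A3, PFKFB2 and SLC16A1. ACGTG was in 10 of the 29 (34.5%) and in 18.5% of all 35116 windows, GCGTG in 10 (34.5%) and in 32.2%, and CACGTG, whose matches are also matches of ACGTG, in 3 (10.3%) and in 6.34%. Either core was in 15 (51.7%) and in 43.2% of all windows. The median GC content was 68.4% in the members' windows and 58% in all windows, and its part in these shares was not tested.

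Glucose enters through facilitative transporters of the SLC2A family. SLC2A3 (GLUT3, the high-affinity transporter) measured 172, 178 and 204 CPM in the WT libraries, given in the order 1 to 3 here and throughout, 89.6, 96.6 and 92.4 CPM in those of 11H1 and 112, 115 and 102 CPM in those of 14B5. Every KO library was below every WT library, and 11H1 was below 14B5. The log2FC was −0.99 ± 0.06 SE, adjusted p = 8.41e-08 in 11H1 and −0.77 ± 0.07 SE, adjusted p = 1.13e-05 in 14B5. SLC2A1 (GLUT1, the common transporter of blood cells) was at 311, 329 and 349.9 CPM in WT, 350.1, 359.5 and 336 CPM in 11H1 and 403, 398 and 373 CPM in 14B5. It rose in 14B5, whose libraries were above all of WT (log2FC 0.23 ± 0.06 SE, adjusted p = 0.00598), whereas 11H1 overlapped WT (log2FC 0.09 ± 0.05 SE, adjusted p = 0.169). Reads of SLC2A3 can be shared with its near-identical paralog SLC2A14 and with pseudogenes, so its level is uncertain. The pseudogene rows took 1.10% to 3.60% of the summed counts, a share that does not include SLC2A14.

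Hexokinase traps glucose as glucose 6-phosphate. HK2, the inducible hexokinase, was at 127, 130.1 and 148 CPM in WT, 64.5, 61.7 and 65.0 CPM in 11H1 and 74.5, 77.8 and 71.7 CPM in 14B5. The 3 groups did not overlap, and the log2FC from WT was −1.08 ± 0.06 SE, adjusted p = 2.80e-08 in 11H1 and −0.87 ± 0.06 SE, adjusted p = 1.95e-06 in 14B5. HK1, the constitutive hexokinase, was at 594, 604 and 621 CPM in WT, 743, 729.8 and 736 CPM in 11H1 and 799, 818 and 797 CPM in 14B5. It rose in both clones, by a log2FC of 0.29 ± 0.04 SE, adjusted p = 1.13e-04 in 11H1 and 0.39 ± 0.04 SE, adjusted p = 4.35e-05 in 14B5, with no overlap with WT. GPI, which turns glucose 6-phosphate into fructose 6-phosphate, fell from 526 ± 4.55 CPM (SD, n = 3) in WT to 274 ± 1.92 CPM in 11H1 (log2FC −0.94 ± 0.04 SE, adjusted p = 5.34e-09) and 371 ± 12.03 CPM in 14B5 (log2FC −0.52 ± 0.05 SE, adjusted p = 7.33e-06).

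Phosphofructokinase commits the sugar to glycolysis and has 3 subunit genes. PFKM, the muscle type subunit, was at 71.0, 70.5 and 73.8 CPM in WT, 39.4, 40.7 and 39.4 CPM in 11H1 and 33.5, 34.2 and 34.2 CPM in 14B5. All 6 KO libraries were below WT, and 14B5 was below 11H1, the reverse of the order for most members. The log2FC was −0.84 ± 0.05 SE, adjusted p = 2.15e-08 in 11H1 and −1.09 ± 0.04 SE, adjusted p = 3.45e-08 in 14B5. PFKP, the platelet type subunit, fell from 169.8 ± 0.652 CPM (SD, n = 3) to 122 ± 0.670 CPM in 11H1 (log2FC −0.48 ± 0.04 SE, adjusted p = 1.21e-06) and 140.4 ± 4.73 CPM in 14B5 (log2FC −0.29 ± 0.04 SE, adjusted p = 3.73e-04). PFKL, the liver type subunit, fell in 11H1 (log2FC −0.20 ± 0.05 SE, adjusted p = 0.006). In 14B5 its libraries, at 615, 648 and 634 CPM, overlapped those of WT, at 640.0, 685 and 625.1 CPM (log2FC −0.06 ± 0.05 SE, adjusted p = 0.377).

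The PFKFB enzymes make and break fructose 2,6-bisphosphate, the strongest activator of phosphofructokinase. PFKFB4 was at 106, 116 and 125 CPM in WT, 21.0, 21.6 and 20.7 CPM in 11H1 and 48.0, 58.0 and 48.3 CPM in 14B5. The 3 groups were far apart, with 11H1 at 18.2% and 14B5 at 44.4% of the WT mean. The log2FC was −2.45 ± 0.06 SE, adjusted p = 9.14e-11 in 11H1 and −1.18 ± 0.08 SE, adjusted p = 1.58e-06 in 14B5, and between the clones it was −1.28 ± 0.07 SE, adjusted p = 5.58e-08. PFKFB3, the most kinase-active of the family, was at 79.4, 79.1 and 89.1 CPM in WT, 58.2, 57.6 and 54.9 CPM in 11H1 and 51.1, 59.99 and 51.5 CPM in 14B5. It fell in both clones (log2FC −0.53 ± 0.06 SE, adjusted p = 5.61e-06 in 11H1 and −0.62 ± 0.07 SE, adjusted p = 5.62e-05 in 14B5), which overlapped each other. PFKFB2 fell in 11H1, from 17.1 ± 0.719 to 12.4 ± 0.163 CPM (log2FC −0.45 ± 0.07 SE, adjusted p = 7.08e-05). In 14B5 it was at 15.5 ± 0.504 CPM and not past the threshold (log2FC −0.16 ± 0.06 SE, adjusted p = 0.0527), which it passed in 3 of 17 alternative settings.

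Aldolase splits fructose 1,6-bisphosphate into 2 trioses. ALDOC (ENSG00000109107.14), on the minus strand at chr17:28573115-28577264 of GRCh38, was at 63.1, 68.4 and 73.5 CPM in WT, 5.501, 4.87 and 4.83 CPM in 11H1 and 3.43, 3.58 and 2.80 CPM in 14B5. The KO libraries were at a small part of the WT level, 7.42% in 11H1 and 4.79% in 14B5 by the means. This was the largest fall of any member in both comparisons, with a log2FC of −3.73 ± 0.08 SE, adjusted p = 1.57e-11 in 11H1 and −4.40 ± 0.09 SE, adjusted p = 9.85e-10 in 14B5. The other genes tested within 5000000 bases of it had a median log2FC of 0.14 in 11H1 (91 genes) and 0.021 in 14B5 (91 genes). ALDOA, the main aldolase of blood cells, was at 1579, 1612 and 1542 CPM in WT, 776, 787 and 743 CPM in 11H1 and 1026, 1047 and 1063 CPM in 14B5. The groups did not overlap, and the log2FC was −1.03 ± 0.05 SE, adjusted p = 5.80e-09 in 11H1 and −0.61 ± 0.05 SE, adjusted p = 2.20e-06 in 14B5. TPI1, which interconverts the trioses, fell from 637 ± 20.8 CPM (SD, n = 3) to 413 ± 9.22 CPM in 11H1 (log2FC −0.62 ± 0.05 SE, adjusted p = 3.22e-07) and 536 ± 14.7 CPM in 14B5 (log2FC −0.26 ± 0.05 SE, adjusted p = 0.00106). Its pseudogene rows took 3.97% to 4.77% of the summed counts.

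**Figure D2:**
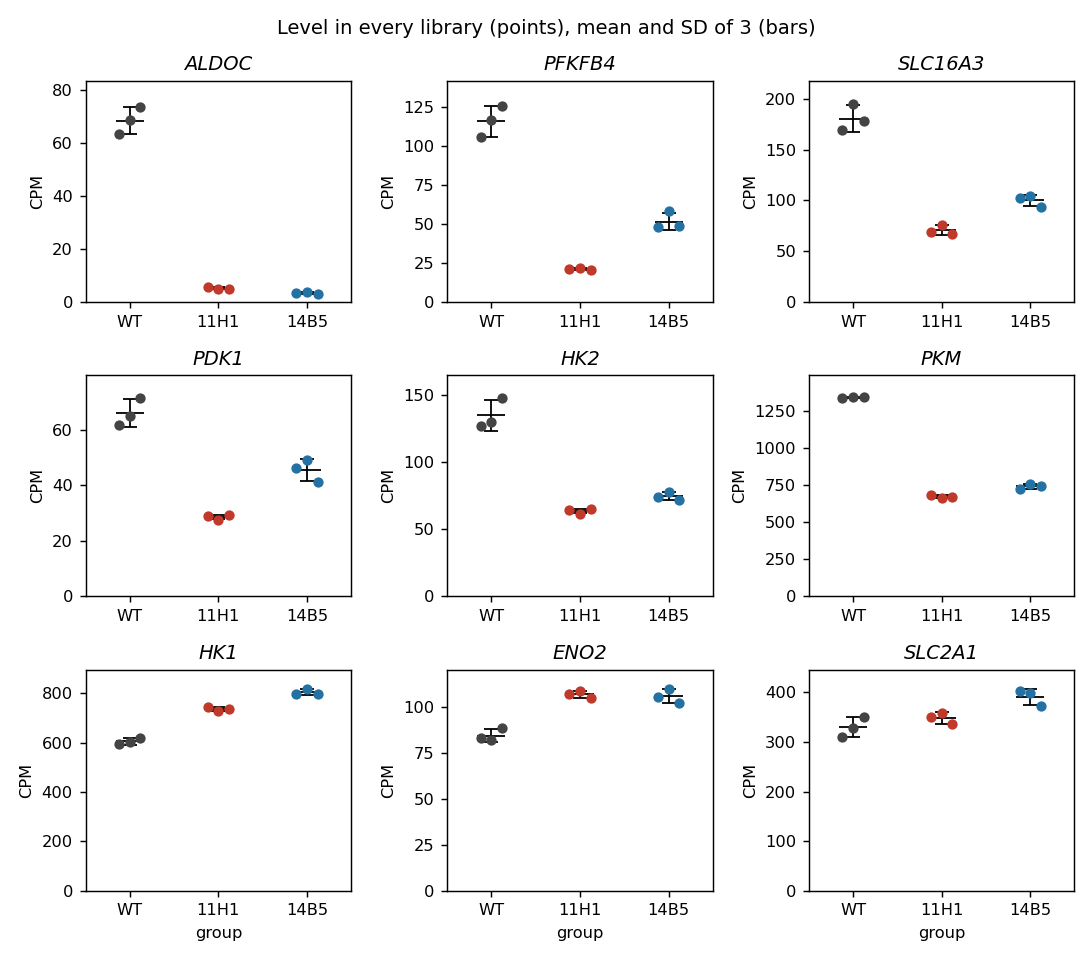
CPM of 9 genes in every library, with WT in grey, 11H1 in red and 14B5 in blue, points for libraries, and bars for the mean and SD of 3, on axes that start at 0. ALDOC and PFKFB4 drop furthest, PKM and HK2 fall in both clones, HK1 and ENO2 lie above WT, and SLC2A1 in 11H1 overlaps WT.

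The lower part of glycolysis yields the ATP. GAPDH, the NADH-yielding dehydrogenase, was at 4483, 4581 and 4562 CPM in WT, 2664, 2561 and 2466 CPM in 11H1 and 3254, 3239 and 3161 CPM in 14B5. The groups did not overlap, and the log2FC was −0.82 ± 0.05 SE, adjusted p = 4.68e-08 in 11H1 and −0.51 ± 0.04 SE, adjusted p = 5.78e-06 in 14B5, so this common reference gene for RNA assays differed between these groups. PGK1, which makes the first ATP, fell from 946 ± 42.6 CPM (SD, n = 3) to 479 ± 1.94 CPM in 11H1 (log2FC −0.98 ± 0.05 SE, adjusted p = 8.88e-09) and 647 ± 23.1 CPM in 14B5 (log2FC −0.56 ± 0.05 SE, adjusted p = 1.03e-05). PGAM1, the mutase of the next step, was at 616, 635 and 634 CPM in WT, 298, 305 and 294 CPM in 11H1 and 475, 478 and 463 CPM in 14B5. Its log2FC was −1.07 ± 0.04 SE, adjusted p = 2.32e-09 in 11H1 and −0.43 ± 0.04 SE, adjusted p = 2.15e-05 in 14B5, and between the clones it was −0.65 ± 0.04 SE, adjusted p = 8.79e-08.

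Enolase makes phosphoenolpyruvate. ENO1, the general enolase, was at 2405, 2402 and 2434 CPM in WT, 1242, 1221 and 1212 CPM in 11H1 and 1529, 1562 and 1537 CPM in 14B5. It fell without overlap, by a log2FC of −0.97 ± 0.04 SE, adjusted p = 5.45e-09 in 11H1 and −0.66 ± 0.04 SE, adjusted p = 8.50e-07 in 14B5. ENO2, the neuronal enolase, was at 83.4, 82.1 and 88.6 CPM in WT, 108, 109 and 105 CPM in 11H1 and 106, 110.1 and 103 CPM in 14B5. It rose in both clones, which overlapped each other (log2FC 0.35 ± 0.05 SE, adjusted p = 3.85e-05 in 11H1 and 0.31 ± 0.05 SE, adjusted p = 4.71e-04 in 14B5). Its gene lies at chr12:6913745-6923698, close to TPI1 at chr12:6867119-6870948, which fell. PKM, the pyruvate kinase that makes the last ATP, was at 1332, 1341 and 1338 CPM in WT, 683, 663 and 671 CPM in 11H1 and 723, 754 and 740.4 CPM in 14B5. The log2FC was −0.99 ± 0.04 SE, adjusted p = 4.60e-09 in 11H1 and −0.87 ± 0.04 SE, adjusted p = 1.39e-07 in 14B5, and gene counts do not separate its M1 and M2 splice forms.

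Lactate dehydrogenase tetramers mix A and B subunits. LDHA was at 1426, 1432 and 1548 CPM in WT, 791, 817 and 825 CPM in 11H1 and 1143, 1139.6 and 1085 CPM in 14B5. It fell in both clones without overlap, by a log2FC of −0.85 ± 0.05 SE, adjusted p = 3.30e-08 in 11H1 and −0.40 ± 0.05 SE, adjusted p = 9.71e-05 in 14B5. LDHB fell from 1137 ± 30.9 CPM (SD, n = 3) to 811 ± 23.98 CPM in 11H1 (log2FC −0.48 ± 0.05 SE, adjusted p = 2.55e-06) and 929.6 ± 7.04 CPM in 14B5 (log2FC −0.31 ± 0.05 SE, adjusted p = 2.69e-04).

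Lactate leaves the cell through monocarboxylate transporters. SLC16A3 (MCT4) was at 169, 195 and 178 CPM in WT, 69.4, 75.9 and 67.0 CPM in 11H1 and 102, 104 and 93.5 CPM in 14B5. The groups did not overlap, and the log2FC was −1.35 ± 0.06 SE, adjusted p = 7.10e-09 in 11H1 and −0.87 ± 0.06 SE, adjusted p = 2.16e-06 in 14B5. SLC16A1 (MCT1, which carries lactate both ways) fell in 11H1, to 313, 311 and 315 CPM from 365, 377 and 406 CPM in WT (log2FC −0.28 ± 0.05 SE, adjusted p = 2.83e-04). In 14B5, at 402, 368 and 344 CPM, it overlapped WT (log2FC −0.06 ± 0.07 SE, adjusted p = 0.455).

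Pyruvate dehydrogenase kinases switch off the entry of pyruvate into the TCA cycle. PDK1 was at 61.7, 64.9 and 71.4 CPM in WT, 28.9, 27.6 and 29.2 CPM in 11H1 and 46.3, 48.9 and 41.3 CPM in 14B5. Here too the groups were separate, and the log2FC was −1.20 ± 0.06 SE, adjusted p = 1.15e-08 in 11H1 and −0.55 ± 0.07 SE, adjusted p = 1.38e-04 in 14B5. PDK3 fell from 29.7 ± 1.49 CPM (SD, n = 3) to 17.6 ± 0.962 CPM in 11H1 (log2FC −0.75 ± 0.06 SE, adjusted p = 7.48e-07) and 23.8 ± 2.08 CPM in 14B5 (log2FC −0.34 ± 0.07 SE, adjusted p = 0.00275).

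The oxidative branch of the pentose phosphate pathway was represented by 1 member. PGD, the dehydrogenase that yields NADPH and ribulose 5-phosphate, was at 270.0, 264 and 259 CPM in WT, 192, 201 and 197 CPM in 11H1 and 221, 211 and 209 CPM in 14B5. Both clones were below WT, with a log2FC of −0.42 ± 0.04 SE, adjusted p = 5.10e-06 in 11H1 and −0.32 ± 0.05 SE, adjusted p = 2.35e-04 in 14B5. TKT (transketolase, which moves carbon between sugars) fell from 463 ± 17.4 CPM (SD, n = 3) to 310.4 ± 4.80 CPM in 11H1 (log2FC −0.57 ± 0.05 SE, adjusted p = 7.18e-07) and 382 ± 15.5 CPM in 14B5 (log2FC −0.30 ± 0.05 SE, adjusted p = 8.09e-04). TALDO1 (transaldolase) fell in 11H1 (log2FC −0.33 ± 0.05 SE, adjusted p = 2.47e-04), whereas in 14B5, at 306, 316 and 350.1 CPM, it overlapped WT, at 329.9, 306 and 295 CPM (log2FC 0.05 ± 0.06 SE, adjusted p = 0.571).

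RPIA and RPE interconvert the pentose 5-phosphates. RPIA was at 58.7, 58.5 and 56.4 CPM in WT, 54.0, 62.7 and 59.2 CPM in 11H1 and 74.2, 74.4 and 73.7 CPM in 14B5. It rose in 14B5 (log2FC 0.34 ± 0.04 SE, adjusted p = 1.13e-04), and in 11H1 its libraries spanned those of WT (log2FC 0.02 ± 0.06 SE, adjusted p = 0.748). RPE was at 83.4, 89.6 and 93.0 CPM in WT, 79.7, 80.3 and 81.1 CPM in 11H1 and 103, 102 and 94.7 CPM in 14B5. It was lower in 11H1 (log2FC −0.14 ± 0.05 SE, adjusted p = 0.0289) and higher in 14B5 (log2FC 0.16 ± 0.06 SE, adjusted p = 0.0346), both small, and each call was lost in 7 of 17 alternative settings, glmTreat among them, with adjusted p in edgeR up to 0.0822 and 0.129 in the other 6. The PGLS row, for the lactonase between the 2 dehydrogenase steps, was at 22.9, 26.0 and 21.1 CPM in WT, 17.5, 18.7 and 16.1 CPM in 11H1 and 21.2, 19.2 and 20.9 CPM in 14B5, and fell in 11H1 (log2FC −0.41 ± 0.08 SE, adjusted p = 9.39e-04) but was not past the threshold in 14B5 (log2FC −0.21 ± 0.08 SE, adjusted p = 0.0505).

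By step, the median log2FC in 11H1 was −1.03 for aldolase and triose phosphate isomerase (3 genes), −0.97 for lower glycolysis (6 genes), −0.97 for the pyruvate dehydrogenase kinases (2 genes), −0.94 for hexokinase and isomerase (3 genes) and −0.67 for the lactate genes (4 genes). It was −0.53 for the fructose 2,6-bisphosphate enzymes (3 genes), −0.48 for phosphofructokinase (3 genes), −0.45 for glucose uptake (2 genes), −0.42 for the oxidative (1 gene) and −0.23 for the non-oxidative pentose phosphate step (4 genes). In 14B5 the same medians were, in this order, −0.61, −0.54, −0.44, −0.52 and −0.36, then −0.62, −0.29, −0.27, −0.32 and 0.10. In 14B5 2 of the 4 non-oxidative genes were called higher and 1 lower, while 5 of the 6 genes of lower glycolysis were called lower. Differences between steps were not tested.

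**Figure D3:**
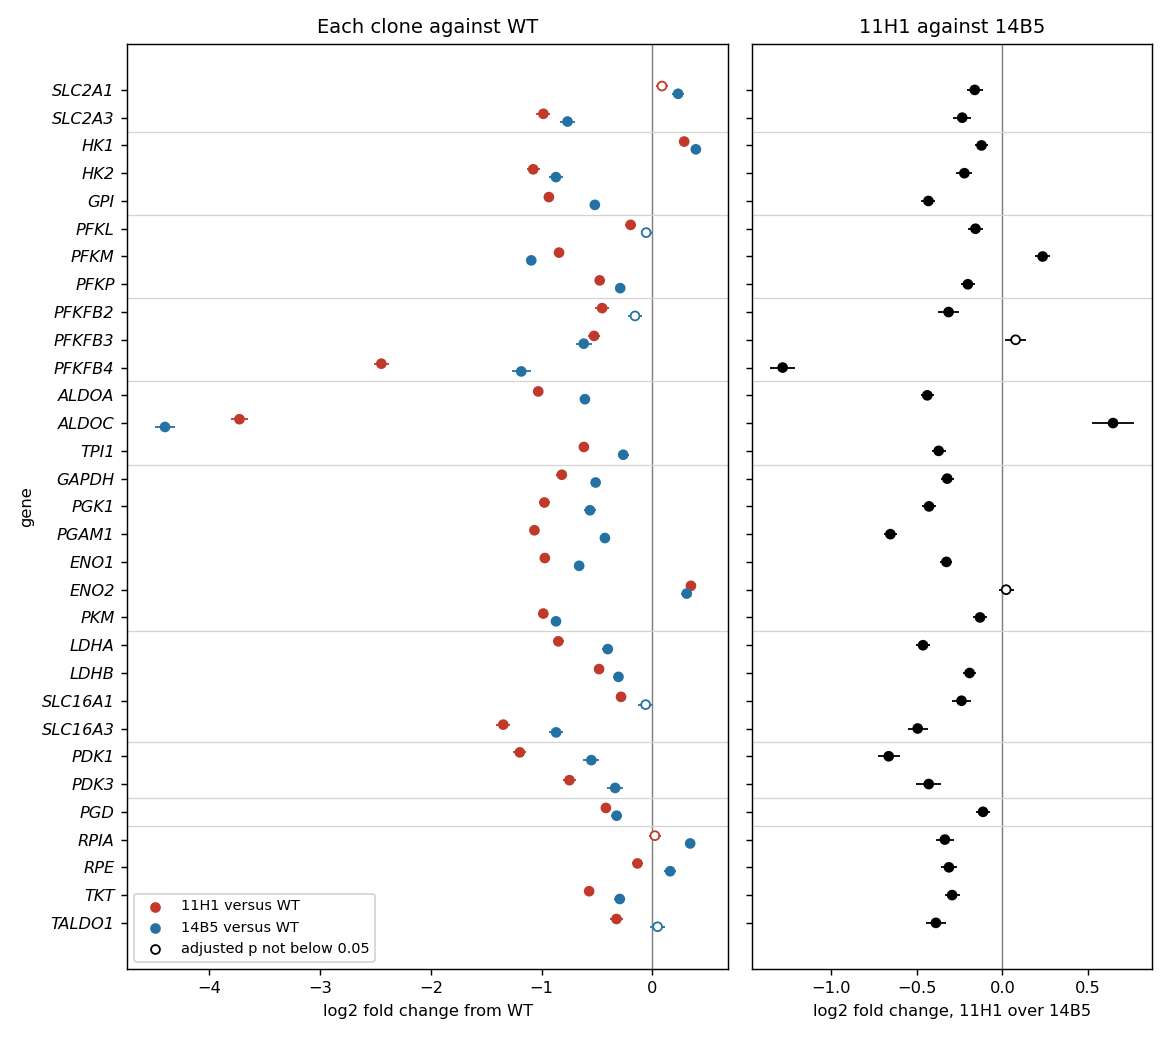
Log2FC of each gene with its standard error as bars, on the left for 11H1 (red) and 14B5 (blue) versus WT and on the right for 11H1 over 14B5, with open points where the adjusted p was not below 0.05 in edgeR. Points left of 0 are lower in the first group, and most members lie left of 0 in all 3 comparisons.

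Set directly against 14B5, 11H1 had lower levels for 27 of the 31 members and higher levels for 2, whereas 63.7% of 16352 genes were called, 32.1% lower and 31.6% higher. The members' median log2FC was −0.31, and −0.0044 for all genes. Libraries of the clones did not overlap for 29 members, where 68.7% of all genes did not. ALDOC (log2FC 0.64 ± 0.12 SE, adjusted p = 6.72e-04) and PFKM (log2FC 0.23 ± 0.04 SE, adjusted p = 6.08e-04) were the members higher in 11H1. PFKFB3 (log2FC 0.08 ± 0.06 SE, adjusted p = 0.302) and ENO2 (log2FC 0.02 ± 0.04 SE, adjusted p = 0.683) were not past the threshold.

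The difference between the clones exceeded 0.5 in glmTreat for PFKFB4, PGAM1 and PDK1, all lower in 11H1, where 3.27% of all genes were lower and 11.6% higher by that rule. The log2FC of 11H1 over 14B5 was −0.66 ± 0.06 SE, adjusted p = 2.92e-06 for PDK1, −0.22 ± 0.05 SE, adjusted p = 0.00141 for HK2 and −0.13 ± 0.04 SE, adjusted p = 0.0104 for PKM. The mitochondrial share moved with 11H1 as well. Without mitochondrially encoded genes the counts of members called in this comparison were the same, 27 lower and 2 higher. Leaving these genes out only rescales the libraries, so the part of that share's shift in the results was not tested.

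With both clones as 1 group of 6 KO libraries, 22 members were lower and 2 higher than WT, whereas 32% of 17080 genes were called, 17.7% lower and 14.3% higher. The members' median log2FC was −0.57, and 0.022 for all genes. HK1 (log2FC 0.35 ± 0.06 SE, adjusted p = 0.00216) and ENO2 (log2FC 0.33 ± 0.05 SE, adjusted p = 7.80e-04) were the members that rose. The 7 not past the threshold were SLC2A1, PFKL, PFKFB2, SLC16A1, RPIA, RPE and TALDO1. In 1 fit of the 3 groups all of these but RPE passed it (30 members called). That fit takes its error from the spread within each group and leaves out the spread between the clones. The study's legends count fewer KO libraries than were deposited, and which was set aside is not given in the sources used here. With each KO library left out in turn, 24 or 25 members were called.

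KO and WT libraries did not overlap for 25 members, where 36.6% of all genes did not. Beyond 0.5 in glmTreat 8 members were lower and 0 higher, where 7.39% of all genes were lower and 1.57% higher. They were SLC2A3, HK2, PFKM, PFKFB4, ALDOC, ENO1, PKM and SLC16A3. This fit treats the 6 libraries as independent although they come from 2 clones. For PFKFB4, which differed most between the clones, the log2FC was −1.67 ± 0.34 SE, adjusted p = 0.00426.

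Isozymes of 1 step differed in direction or size. Shares within a family were taken from counts per kilobase of merged exons. Merged exons take in all annotated transcripts, so the size of a share depends on that length, which library ranges do not measure. SLC2A3 held 29.3% to 30.9% of the GLUT1 and GLUT3 reads per kilobase in WT, 16.4% to 17.4% in 11H1 and 17.3% to 18.1% in 14B5. HK2 held 18.2% to 19.9% of the hexokinase pair in WT, 8.07% to 8.397% in 11H1 and 8.54% to 8.99% in 14B5. In both families the remaining isozyme was the one that did not fall, and the KO ranges overlapped each other for SLC2A3.

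ALDOC held 5.07% to 5.99% of the aldolase reads per kilobase in WT, 0.821% to 0.939% in 11H1 and 0.351% to 0.455% in 14B5. ENO2 held 4.04% to 4.30% of enolase in WT, 9.64% to 9.91% in 11H1 and 7.60% to 7.99% in 14B5. PFKFB4 held 54.2% to 56.6% of its family in WT, 24.7% ± 0.406 (SD, n = 3) in 11H1 and 44.2% to 45.7% in 14B5. PFKFB3 held most of that family in 11H1, 66.0% to 67.2%, against 38.4% to 40.8% in WT.

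SLC16A3 held 20.5% to 23.4% of the MCT1 and MCT4 reads per kilobase in WT, 11.1% to 12.6% in 11H1 and 13.1% to 14.3% in 14B5. LDHA held 37.1% to 39.4% of lactate dehydrogenase in WT, 32.1% to 32.8% in 11H1 and 35.8% to 37.3% in 14B5, so 14B5 overlapped WT. For the other 8 families no range of a clone overlapped that of WT.

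**Figure D4:**
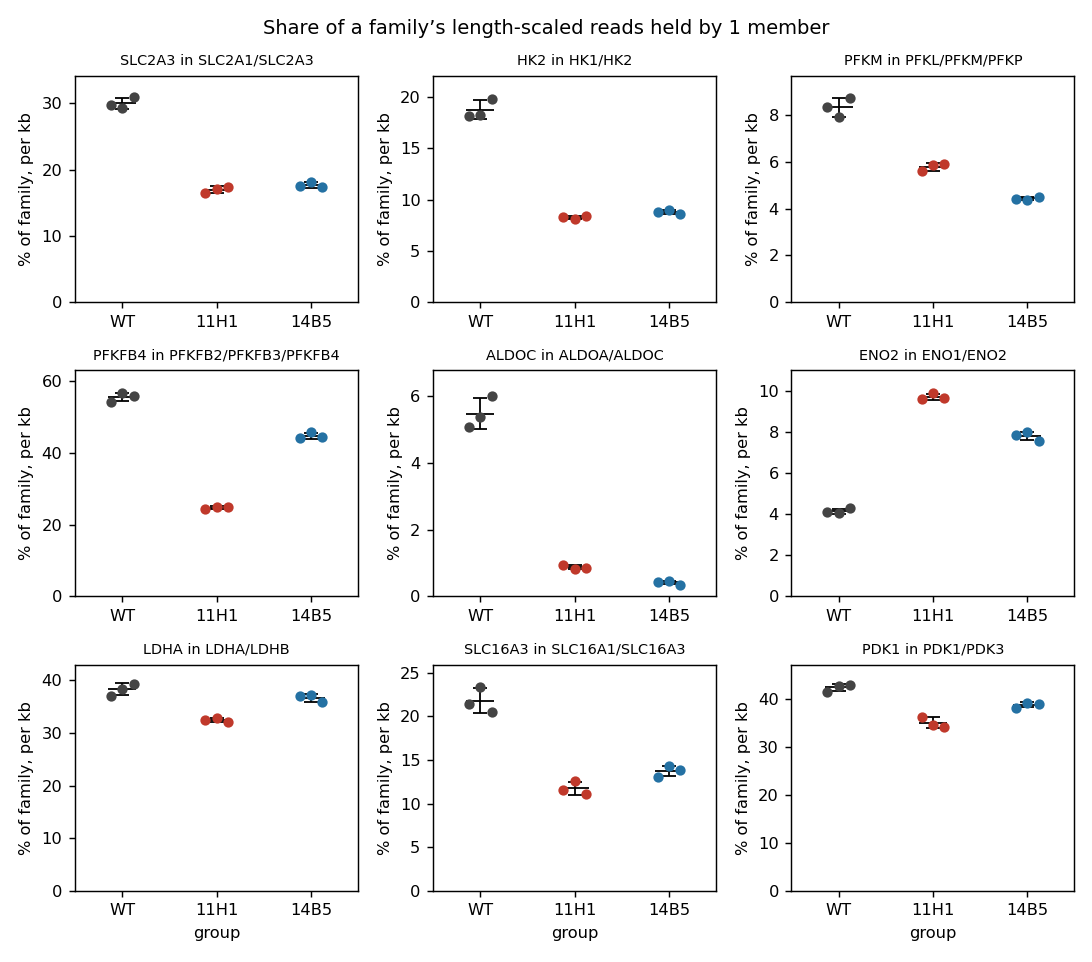
Share of a family's reads per kilobase, in percent, held by 1 named member in each library, with points for libraries and bars for the mean and SD of 3 on axes that start at 0. All but LDHA in 14B5 leave the WT range, and ENO2 is the 1 member shown whose share rises.

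Per kilobase of merged exons, GAPDH was the most abundant member in every group, at 1524 CPM per kilobase in WT, 859.9 in 11H1 and 1079.6 in 14B5. In WT it was followed by ENO1 at 457, ALDOA at 403 and LDHB at 381, each apart from the next. PGAM1, LDHA and TPI1 came next in WT, and their ranges overlapped in that order. In both clones LDHB stood second, at 272 in 11H1 and 312 in 14B5, ahead of ENO1 at 232 and 292. HK1 moved from rank 11 in WT, at 96.3 CPM per kilobase, to rank 7 in 11H1 and 8 in 14B5, while ALDOC moved from rank 22, at 23.3, to rank 30 and 31. The order of genes depends on the merged exon length, an error that library ranges do not measure. LDHA, over 6210 bases, stood below LDHB, over 2983 bases, although its WT mean was 1469 CPM against 1137 CPM.

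The neighbouring pathways were read from 4 lists of other genes, chosen with earlier results of these data known, so their shares are a description. Of 29 HIF targets outside glycolysis that were tested, 26 were called lower and 1 higher in 11H1 (median log2FC −1.30), and 25 lower and 1 higher in 14B5 (median −0.62). With both clones pooled 22 were lower and 1 higher (median −0.96). The shares called lower, 89.7%, 86.2% and 75.9% pooled, stood against 32.8%, 28.7% and 17.7% of all genes tested. The medians were the same with genes at 0 in a group set at 3 counts, but only 1 or 2 genes were at 0, too few to move a median. BNIP3, a mitophagy receptor, fell from 65.5 ± 6.91 CPM (SD, n = 3) in WT to 4.84 ± 0.217 CPM in 11H1 (log2FC −3.76, adjusted p = 2.92e-11 in edgeR), and its log2FC was −1.05 in 14B5. VEGFA, the angiogenic growth factor, fell from 129 ± 4.62 to 54.0 ± 2.64 CPM in 14B5 (log2FC −1.27, adjusted p = 3.57e-08 in edgeR), with a log2FC of −0.79 in 11H1. ANKRD37 (−2.71 and −1.56), MIR210HG (−2.51 and −0.87) and LOX (−1.99 and −3.34), all under 6 CPM in WT, were lower in 11H1 and 14B5. EGLN3, a HIF prolyl hydroxylase, was the HIF target called higher in both (0.99 and 0.76).

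Of 31 genes of pyruvate entry and the TCA cycle tested, 20 were called lower and 1 higher in 11H1 (median log2FC −0.17). In 14B5 5 were lower and 7 higher (median 0.015). The shares called lower were 64.5% and 16.1%, against 32.8% and 28.7% of all genes tested. In 14B5 neither direction went above the share of all genes, of which 24.9% were called higher. SDHA, a subunit of succinate dehydrogenase, fell from 308 ± 8.002 CPM (SD, n = 3) in WT to 127 ± 4.19 CPM in 11H1 (log2FC −1.27, adjusted p = 1.04e-09 in edgeR) and to 172 ± 1.87 CPM in 14B5 (log2FC −0.86, adjusted p = 1.62e-07). Its partners SDHB (−0.59) and SDHD (−0.57) also fell in 11H1 and were not past the threshold in 14B5 (−0.21 and −0.09). SDHC, another subunit, had a log2FC of −0.18 in 11H1 and 0.24 in 14B5. MPC1 (0.37) and MPC2 (0.48), which carry pyruvate into mitochondria, and SUCLG2 (0.35) rose in 14B5, where PDPR (−0.37) and IDH3B (−0.25) fell. In 11H1 PDPR was the gene called higher (0.16).

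Of 42 other genes of glycolysis, lactate and the pentose phosphate pathway, 25 were tested. In 11H1 9 were called lower and 7 higher (median log2FC −0.022), and in 14B5 7 lower and 5 higher (median 0.031). The shares called lower, 36% and 28%, were near those of all genes tested, 32.8% and 28.7%, and are no result about this list. PGM1, which links glycogen to glycolysis, fell from 19.98 ± 0.445 CPM (SD, n = 3) to 4.03 ± 0.523 CPM in 11H1 (log2FC −2.32, adjusted p = 1.84e-09 in edgeR) and to 12.7 ± 0.327 CPM in 14B5 (log2FC −0.67). H6PD (−1.56 and −1.18) and SLC2A6 (−0.23 and −0.51) were called lower in both clones, and PGAM4 (−1.54), whose reads can be shared with PGAM1, in 11H1. MINPP1 rose in both (0.50 and 0.90), as did PRPS1 (0.14 and 0.59) and ADPGK (0.22 and 0.15), while ENO3 (0.53) was called in 11H1 (0.07 in 14B5) and PRPS2 went down in 11H1 (−0.31) and up in 14B5 (0.38).

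Among regulators of these genes, 6 were called lower and 8 higher of 22 tested in 11H1 (median log2FC −0.035), and 6 lower and 10 higher of 23 in 14B5 (median 0.12). The shares called lower, 27.3% and 26.1%, were again near those of all genes. Of all genes tested 31.8% and 24.9% were called higher. The regulators stood above those shares, a little in 11H1 and more so in 14B5, a difference that was not tested. HIF1A, the oxygen-regulated HIF subunit, was lower in both clones (log2FC −0.36, adjusted p = 2.37e-04 in edgeR in 11H1, and −0.24, adjusted p = 0.0218 in 14B5). EPAS1, which encodes HIF-2 alpha and was at 3.12 ± 0.572 CPM (SD, n = 3) in WT, was lower too (−1.37 and −0.73), as was SREBF1 (−0.97 and −0.45). VHL (0.17 and 0.25), which targets HIF for destruction, and HIF1AN (0.38 and 0.17), which blocks its activity, were higher. So were MLX (0.33 and 0.32) and MLXIP (0.58 and 0.23), partners in glucose-sensing transcription. MYCL, at 2.59 ± 0.215 CPM (SD, n = 3) in WT, fell in 11H1 (−0.84) and NFE2L2 rose in 14B5 (0.32). The log2FC in 11H1 and 14B5 was −0.11 and −0.05 for MYC and −0.75 and −3.42 for MYCN. MYCN had the lowest log2FC of the regulators tested in 14B5. It was either not past the threshold or had a mean below 1 CPM over the 9 libraries, so its fold change is uncertain. RNA levels do not report the protein level or activity of these factors.

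**Figure D5:**
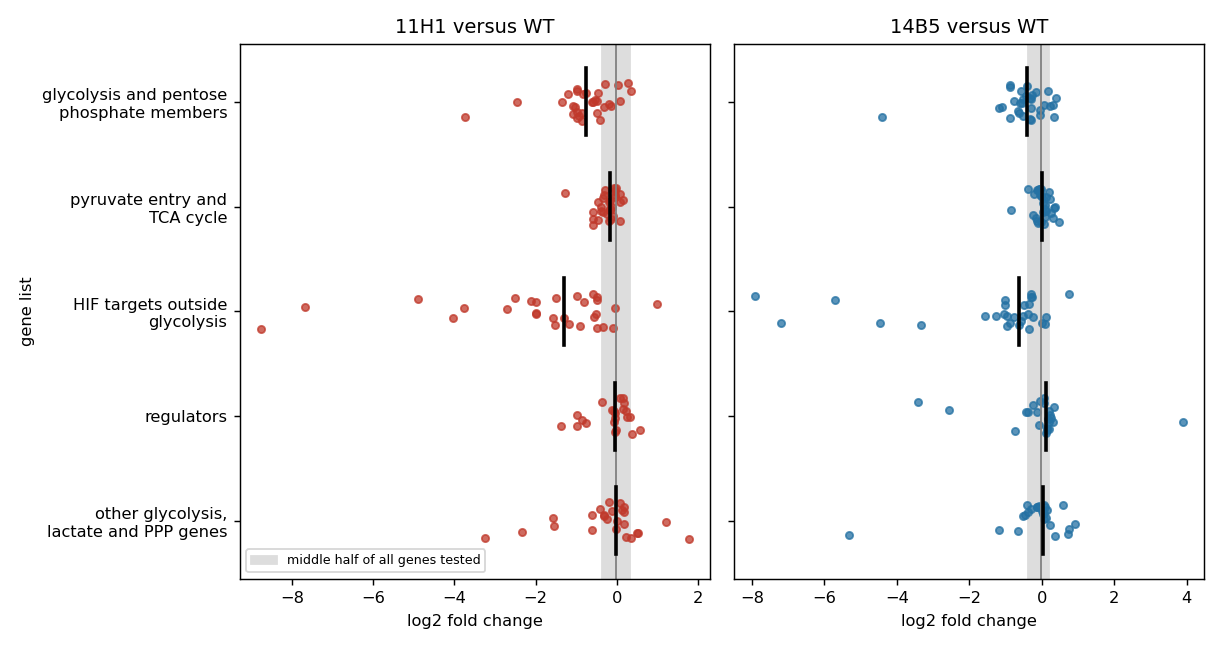
Log2FC of every tested gene of 5 lists in 11H1 (left, red) and 14B5 (right, blue) versus WT, with points for genes, black bars for list medians and a grey band for the middle 50% of all genes tested. The members (medians −0.75 and −0.40) and the HIF targets outside glycolysis (−1.30 and −0.62) lie left of the band's centre, the TCA list lies left of it in 11H1 (−0.17), and the medians of the remaining lists are between −0.035 and 0.12.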

How the data were processed

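RNA of 9 SET2 libraries was sequenced, 3 each of WT, 11H1 and 14B5, all untreated. The authors deposited a table of RSEM expected counts per gene, and the submitters' processing notes name STAR 2.7.9a, Picard, RSEM and GRCh38. The labels name a SMARTer library kit and the study's methods a stranded TruSeq kit, so strandedness is uncertain. Between 5.73% and 6.64% of the values per library were not whole, the mark of reads divided among genes, and were rounded here. The table lists 60662 genes, and 92 spike-in rows at 0 were left out. No pair of libraries within a group were copies of each other (chi-square per degree of freedom 4.04 to 36.1).

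Counts were tested with edgeR 4.0.16 in R 4.3.3 (filterByExpr, TMM, quasi-likelihood F test, Benjamini-Hochberg adjustment over all genes tested, threshold 0.05), with limma 3.58.1 (voom) and DESeq2 1.42.0 as alternatives, beside other filters, protein-coding genes only, no mitochondrially encoded genes, 1 fit of 3 groups, pseudogene counts added, glmTreat and each library left out. All adjusted p values in the text are from edgeR. The code was tested on simulated data. Every member is described, and of each other list the 3 largest rises and falls past the threshold in each clone, among genes whose mean over the 9 libraries reached 1 CPM. MYC, MYCN and SDHC were added outside that rule, as relatives or partners of genes it named. The members and the lists were chosen with earlier results of these data known. Exon lengths came from GENCODE 29 (58587 genes, 96.6%). Deviations of same-numbered libraries from their group means correlated between −0.286 and 0.144, and those of other pairs reached 0.256. Replicate numbers thus showed no sign of pairing the libraries, a weak check because deviations within a group of 3 sum to 0.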

Additional observations from a re-analysis of the deposited data

Results flagged for a closer look

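The 2 clones differed from each other for 29 of the 31 members when 11H1 was tested directly against 14B5 (edgeR, adjusted over all genes), so the response relative to WT was not of 1 size. The log2 fold change of 11H1 over 14B5 was below 0 for SLC2A1 (−0.16), SLC2A3 (−0.23), HK1 (−0.12), HK2 (−0.22), GPI (−0.43), PFKL (−0.16), PFKP (−0.20), PFKFB2 (−0.31), PFKFB4 (−1.28), ALDOA (−0.44), TPI1 (−0.37), GAPDH (−0.32), PGK1 (−0.43) and PGAM1 (−0.65). It was also below 0 for ENO1 (−0.33), PKM (−0.13), LDHA (−0.46), LDHB (−0.19), SLC16A1 (−0.24), SLC16A3 (−0.49), PDK1 (−0.66), PDK3 (−0.43), PGD (−0.11), RPIA (−0.33), RPE (−0.31), TKT (−0.29) and TALDO1 (−0.39). It was above 0 for PFKM (0.23) and ALDOC (0.64). In this comparison 63.7% of all genes tested were called. Whether the clones differ in editing, in founder cell or in culture was not tested. With 6 KO libraries in 1 group, a check of each of the 31 members for 1 library far from the others found 0. Its chance rate of about 1 of 20 holds for 1 uniform group, and the clones differed for 29 members. Their gap widened the range that the check divides by, so it says little about a library astray within its clone.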

How the results depend on the processing

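Counts of members called were within 1.5 times the reported counts under every setting tried except glmTreat, which asks for a change beyond 0.5 on the log2 scale and left 17 members in 11H1 versus WT, 9 in 14B5 versus WT, 3 in 11H1 versus 14B5 and 8 in KO versus WT. Under glmTreat the other glycolysis and pentose phosphate list kept 7 and 4 calls of 25 genes tested in 11H1 and 14B5. The TCA list kept 1 and 1 of 31, the regulators 4 of 22 and 3 of 23, and the HIF targets 13 of 29 in 14B5. These counts take rises and falls together, and that of the HIF targets in 11H1 is not given here. By the glmTreat rule 12% of all genes were lower and 9.12% higher in 11H1, and 12.8% and 2.91% in 14B5. No list was tested against these shares. With 1 library left out, 28 to 29, 26 to 27, 28 to 30 and 21 to 25 members were called in the 4 comparisons in the same order. With the replicate number as a replicate block, 29, 26, 28 and 23 were called, although the numbers showed no sign of pairing the libraries. RPE (14B5 versus WT, adjusted p = 0.0985 in edgeR), PGD (11H1 versus 14B5, 0.0767) and TPI1 (KO versus WT, 0.0527) lost their calls. Besides glmTreat, HK1 (adjusted p = 0.0809) and PKM (0.0638) lost their calls between the clones with protein-coding genes only. PGD lost its call between the clones in 6 settings, the block included (up to 0.147), and TPI1 in KO versus WT in 3, the block and WT replicate 1 or 2 left out (up to 0.0807). So did, in KO versus WT, PGAM1 without WT replicate 2 (0.0568) or 3 (0.0532) and PDK3 without WT replicate 2 (0.0518) or 3 (0.0703). Calls were gained by PFKFB2 in 14B5 versus WT in 3 settings and in KO versus WT in 6, by SLC2A1 in 11H1 versus WT without WT replicate 3, by PFKFB3 between the clones without 14B5 replicate 2, and in KO versus WT with 1 fit of 3 groups by 6 members (30 called against 24). The sign turned in 9 fits, all of values that were not called. They were RPIA in 11H1 versus WT (−0.00059 with no filter, −0.0040 without WT replicate 3, −0.024 without 11H1 replicate 2, and up to 0.076 with other libraries left out), TALDO1 in 14B5 versus WT (−0.0080 without 14B5 replicate 3, up to 0.10), ENO2 in 11H1 versus 14B5 (−0.0021 with no filter, −0.0052 without 14B5 replicate 3, up to 0.043 with other libraries left out and 0.062 with protein-coding genes only) and RPE in KO versus WT (−0.023 without WT replicate 1, −0.017 without 14B5 replicate 1, −0.012 without 14B5 replicate 2, up to 0.062). The cause was not tested. The effect of depth was not tested, and 3 libraries a group and 2 clones limit the precision.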
